A study of Bos taurus with 16 samples.

Results

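The homeobox developmental genes described here are transcription factor genes of 17 families whose symbols start with HOXA, HOXB, HOXC, HOXD, LHX, PAX, DLX, NKX, MEIS, PBX, IRX, EMX, OTX, MSX, GSX or POU followed directly by a digit, together with the numbered family of SIX5. Of the 199395 CpG sites in the RRBS table, 1360 lay on an autosome and carried such a symbol, and these sites belonged to 99 of the 10781 genes in the table. RRBS (reduced representation bisulfite sequencing) reads the methylation level of single cytosines in MspI fragments, which come mainly from CpG-rich DNA. A further 1 matching site, in POU3F4 on chromosome X, fell outside the rule. No measured level was used to choose the members. Of the 118 autosomal protein-coding genes that match the rule in the RefSeq annotation of a later bovine assembly (ARS-UCD2.0, used for names and gene order only), 98 had a site here and 20 had none, among them HOXA4, HOXA7, HOXD10, MSX2 and SIX2. Between 1 and 136 sites were measured per gene, 85 genes had at least 2 sites, and PAX7 (136), HOXA3 (85), HOXB3 (68) and IRX2 (56) had the most.

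Homeobox genes encode transcription factors that mostly bind DNA through a homeodomain, while PAX1 and PAX9 have a paired domain and no homeodomain. The HOX genes lie in clusters in the order in which they act along the body axis, so that low-numbered paralogues pattern anterior structures and high-numbered ones posterior structures such as the reproductive tract. In cells that do not use them, many of these genes are held silent by Polycomb proteins on unmethylated CpG islands, while gain of methylation at such islands is known from ageing tissue and tumours. In the uterus, HOXA10 and HOXA11 act in receptivity of the endometrium, HOXA13 and EMX2 in the identity and growth of the Müllerian duct, PAX2, PAX8 and LHX1 in its formation, and MSX1 in the uterine epithelium before implantation.

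The endometrial cells were collected by cytobrush from multiparous Holstein-Friesian cows inseminated on days 50 to 64 postpartum, 4 to 8 h after the insemination. Cows received a control diet (CON) or the same diet with rumen-protected methionine (RPM, MET) from day 12 postpartum, and were classed by whether the insemination resulted in pregnancy (P) or in no pregnancy (noP). This gave CON_P, CON_noP, MET_P and MET_noP with 4 libraries each, and every library is named below by its group and its library number in the table. The study's methods name more cytobrush samples than libraries and do not say how samples were joined, so the number of cows in a library is unknown and p-values measure the spread between these libraries. The table gives percentages without read counts, so the depth behind a value is unknown beyond the minimum read count the authors set, and it holds only sites that the authors measured above zero in every library, so sites without any methylated call are not represented. Over all autosomal sites that are not in these genes, the mean methylation level per library ran from 62.9% (CON_noP library 16) to 66.5% (CON_P library 14), and no pair of libraries held identical values.

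The homeobox sites were low in methylation in every library. Their mean level over the 16 libraries was 24.4% and their median 15.3%, whereas the 187676 other autosomal sites had a mean of 64.9% and a median of 80.4%. Under 20% lay 815 of the 1360 sites (59.9%) compared to 17.1% of the other autosomal sites, and at 80% or more lay 96 sites (7.06%) compared to 50.3%. The mean over the homeobox sites was 38.7 to 42.6 percentage points below that of the other sites in each of the 16 libraries. Counted by gene, genes with at least 2 sites had a median level of 12.7% if they were homeobox genes (85) and of 70.6% otherwise (8285 autosomal genes), with 57 of the 85 under 20% and 6 at 50% or more. The typical spread at a site was alike, with a median SD within a group of 5.81 percentage points at homeobox sites and 5.93 at other autosomal sites.

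**Figure D1:**
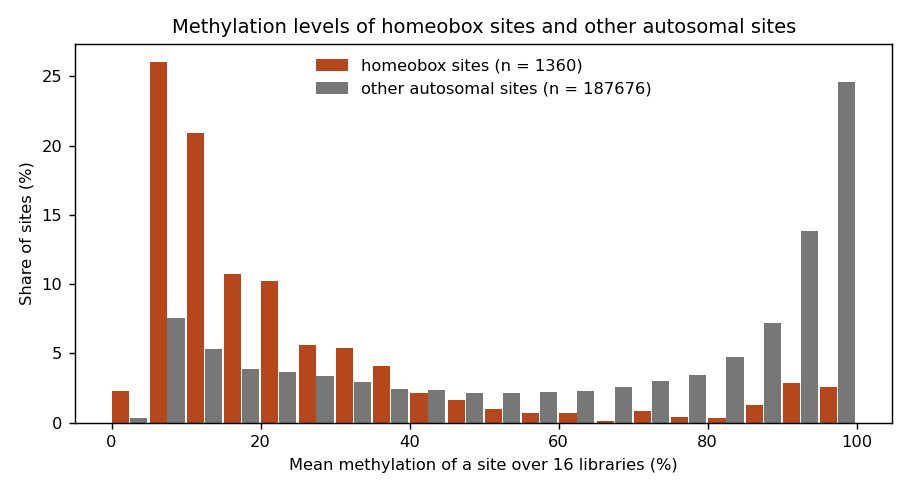
Share of sites (%, vertical axis) in bins of mean methylation level over the 16 libraries (%, horizontal axis) for the 1360 homeobox sites and the 187676 other autosomal sites. The homeobox sites gather below 20% (59.9% of them), while 50.3% of the other sites lie at 80% or more.

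The mean level was below that of the other autosomal sites at each density of sites. Homeobox sites with 2 or fewer measured neighbours within 250 bp averaged 21.7% (357 sites), compared to 55.6% for other autosomal sites of that density, those with 3 to 9 neighbours 24.5% (560 sites) compared to 72.0%, and those with 10 to 19 neighbours 24.3% (286 sites) compared to 67.1%. The 157 sites with 20 or more neighbours averaged 30.3% compared to 52.8%, but in this densest class 10.2% of the homeobox sites lay under 20%, compared to 19.9% of the other sites. At 65 places a pair of adjacent positions, taken as the strands of a CpG, was in the table, and their levels differed by a median of 2.03 percentage points and by at most 9.26.

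The families differed in level. The GSX sites averaged 6.44% (10 sites in GSX1 and GSX2, factors of the ventral forebrain), the IRX sites 15.3% (149), the HOXD sites 15.8% (66), the NKX sites 16.7% (137), the HOXC sites 18.9% (84) and the sites of the SIX5 family 19% (45). The HOXB sites averaged 30.5% (93), the DLX sites 30.6% (28), the PAX sites 31.8% (290) and the POU sites 31.9% (69). Of the PBX genes, whose proteins bind DNA together with HOX proteins, only PBX4 was measured, and its 15 sites averaged 79.0%. Sites of a family share genes and neighbouring positions, so these are descriptions of the measured sites and not of independent draws.

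Among the 62 genes with at least 5 sites, IRX6 was lowest with 4.89% (7 sites), followed by GSX2 (6.39%, 8 sites), LHX5 (7.86%, 18 sites), NKX3-2 (8.47%, 15 sites) and HOXB6 (8.58%, 5 sites). IRX6 belongs to the Iroquois genes of heart and nervous system, LHX5 to the LIM homeobox genes of the forebrain, and NKX3-2 acts in cartilage. The 16 libraries spanned 2.56% to 8.31% in IRX6 and 5.62% to 10.8% in LHX5, so these neighbours in the order overlapped between libraries. At the other end stood PBX4 (79.0%), POU6F1 (72.4%, 7 sites), POU2F1 (69.4%, 6 sites), NKX6-3 (64.7%, 13 sites) and SIX5 (44.6%, 12 sites). POU2F1 encodes OCT1, a factor used in nearly all cells, and NKX6-3 a factor of the gastric epithelium. Genes with fewer sites reached higher, namely HOXB1 (95.2%, 3 sites), POU2F3 (94.3%, 1 site), which marks tuft cells, and PAX4 (91.3%, 3 sites), which marks the endocrine pancreas.

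**Figure D2:**
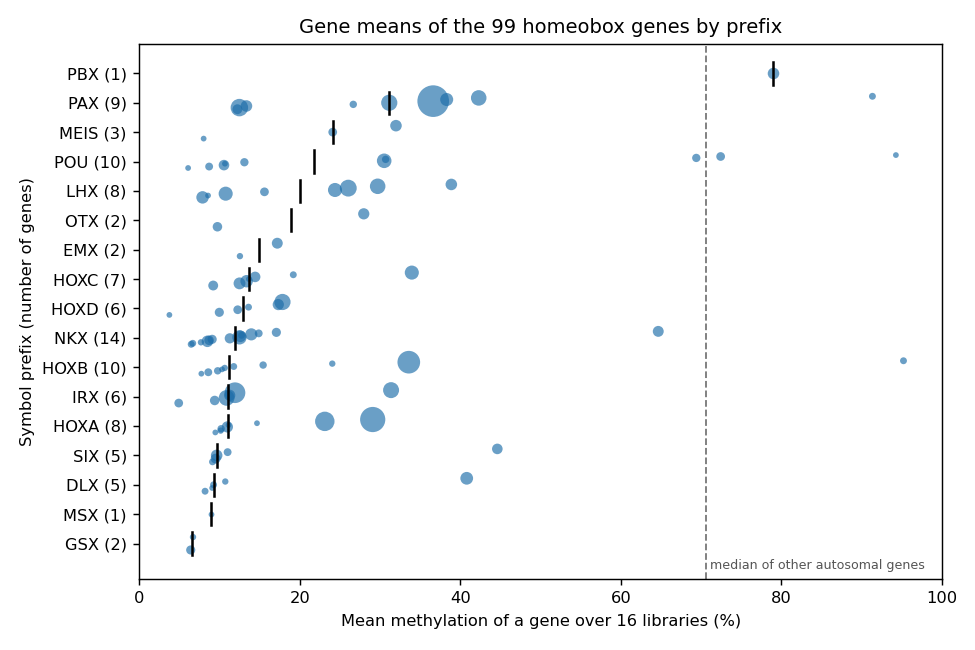
Mean methylation level of each of the 99 homeobox genes over 16 libraries (%, horizontal axis) by symbol prefix, with dot area growing with the number of sites, a black bar at the prefix median and a dashed line at the median of the other autosomal genes (70.6%). Most genes lie under 20%, with separate high genes in PBX, POU, PAX, HOXB and NKX.

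Close relatives stood apart in several families. DLX4 averaged 40.8% over 19 sites, whereas DLX2, DLX3, DLX5 and DLX6 had 8.18%, 9.06%, 10.7% and 9.24% over 1 to 3 sites each. SIX5 lay at 44.6%, whereas SIX3, SIX4 and SIX6, factors of muscle and eye, had 9.49%, 9.10% and 9.62%. Among the NKX6 genes, NKX6-1 (12.5%, 25 sites) and NKX6-2 (13.9%, 17 sites) were low and NKX6-3 high (64.7%). IRX1 had 31.4% (32 sites), above IRX2 (11.9%), IRX3 (9.37%), IRX4 (10.9%) and IRX5 (11.2%). OTX1, a factor of the forebrain, had 28% (14 sites) and OTX2 9.72% (9 sites). The lowest library of DLX4 (27.1%), SIX5 (39.2%), NKX6-3 (59.9%), IRX1 (22.9%) and OTX1 (21.0%) stood above the highest library of each of these relatives.

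Levels also differed within genes. Of the 62 genes with at least 5 sites, 20 had all sites under 20%, 15 held sites both under 20% and at 80% or more, and 27 lay in between. In LHX4 (15 sites) the sites ran from 6.31% to 98.0%, in MEIS2 (15 sites) from 5.48% to 97.1%, and in LHX6 (24 sites), a factor of interneurons, from 4.35% to 97%. PAX7, the factor of muscle satellite cells, had 3 windows of at least 10 sites whose neighbours lay within 200 bp. The window at chr2:134028458-134028515 averaged 6.04%, the window at chr2:133942674-133942875 averaged 27.3% and the window at chr2:133954961-133955238 averaged 92.3% (ARS-UCD1.2, as are all positions here). In IRX1 the window at chr20:69332242-69332547 averaged 21.7% and the one at chr20:69321124-69321223 averaged 50.5%. The table names the gene of a site but not the exon, intron or promoter, so these windows are given by position only.

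In the HOX clusters, the methylation level was higher at the anterior than at the posterior genes. The 283 sites of paralogues 1 to 5 (12 genes) averaged 27.7% and the 117 sites of paralogues 6 to 13 (19 genes) averaged 12.7%. The first mean was the higher in each of the 16 libraries, by 7.39 percentage points in MET_noP library 17 up to 24.8 in MET_noP library 25. Across libraries the anterior sites varied between 18.9% and 39.1% and the posterior ones between 10.1% and 15.1%. By gene, 5 of the 12 anterior genes and 1 of the 19 posterior genes (HOXB13, 24%, 2 sites) were at 20% or more, with median gene levels of 16.6% and 11%.

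The anterior level rested on the genes with many sites. HOXA3 averaged 29.1% (85 sites), HOXB3 33.6% (68), HOXA5 23.1% (49), HOXC5 33.9% (24) and HOXD3 17.8% (33), whereas HOXA2 (14.6%, 1 site) and paralogue group 4 as a whole (14.6%, 7 sites in HOXB4 and HOXD4) were lower. HOXB1, at the anterior end of its cluster, was the exception above 90%. Paralogue group 11 had the lowest site mean of the groups with over 10 sites, 9.53% over 19 sites. In RefSeq's gene order HOXA4 lies beside HOXA3 and had no site of its own. The measured sites named HOXA3 spanned 28680 bp, so some of them may lie in overlapping transcripts. The HOXA sites lay at chr4:68843258-68939711, the HOXB sites at chr19:37792780-37959096, the HOXC sites at chr5:25997945-26093500 and the HOXD sites at chr2:20725807-20820489. Inside these spans the table held 29, 90, 34 and 58 sites under other names or none, with means of 23.8%, 24.9%, 29.7% and 15.6%, so the low level extended past the sites assigned to HOX genes.

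**Figure D3:**
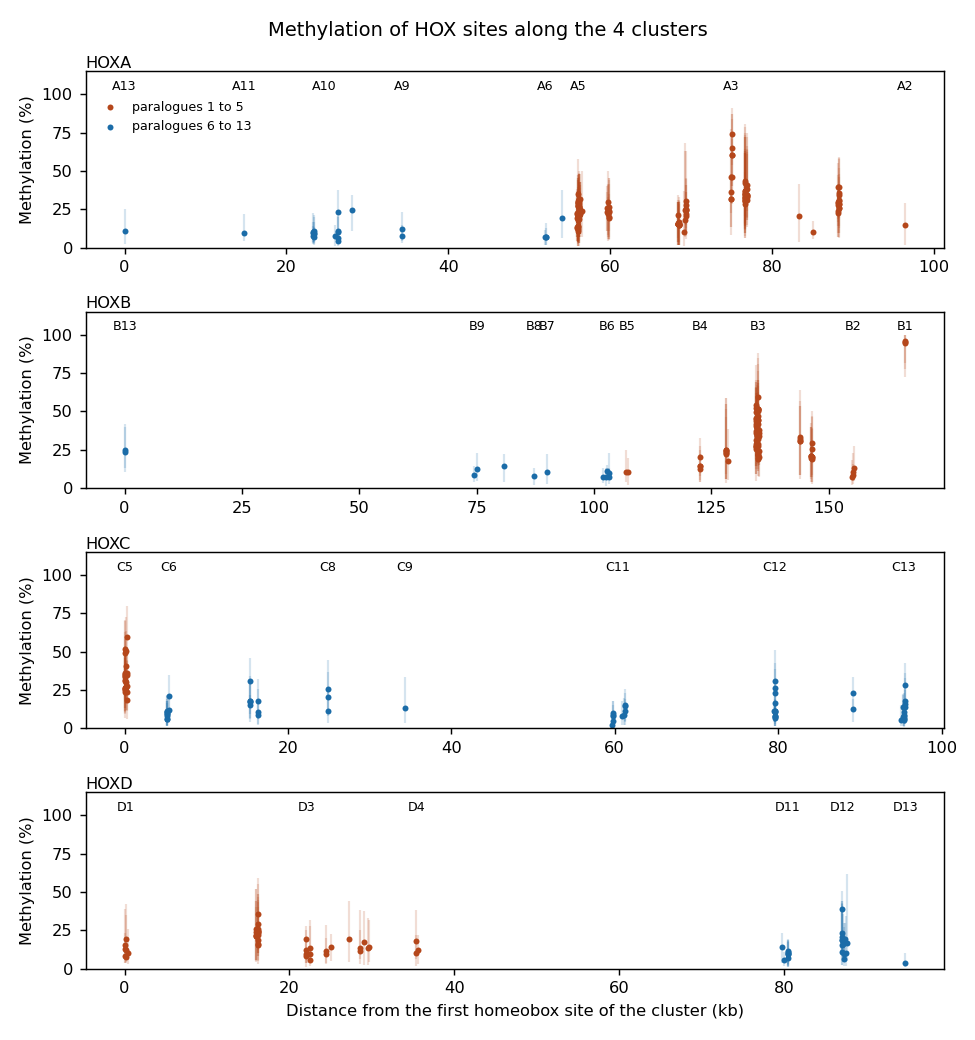
Methylation level of each HOX site (%, vertical axis, dot at the mean and line from the lowest to the highest of 16 libraries) by distance from the first site of its cluster (kb, horizontal axis), with gene names on top. Sites of paralogues 6 to 13 average 12.7%, and the wide lines stand over HOXA5, HOXA3 and HOXB3.

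The genes known from the uterus and the Müllerian duct were mostly low. Of 17 genes listed for this role, 13 were measured, and 9 of them were under 20%. HOXA10 (chr4:68866568-68871314) averaged 11% over 14 sites and ran from 7.80% in MET_noP library 25 to 14.6% in MET_P library 19. CON_P averaged 10.9% ± 0.828, CON_noP 11.3% ± 1.96, MET_P 11.7% ± 2.18 and MET_noP 9.86% ± 1.64 (SD, n = 4 each) at this gene, and all groups overlapped. HOXA11 (9.45%, 1 site), HOXA13 (11.1%, 1 site), HOXA9 (10.1%, 2 sites), HOXD11 (9.95%, 8 sites) and HOXD13 (3.73%, 1 site) were as low, and HOXD12 averaged 17.3% over 14 sites. EMX2 averaged 12.5% (2 sites) and MSX1 8.88% (1 site).

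The Müllerian duct factors PAX8 (42.3%, 30 sites), PAX2 (31.1%, 33 sites), LHX1 (26%, 36 sites) and the HOX cofactor MEIS1 (24.1%, 7 sites) lay higher. PAX8 sites ran from 5.93% to 97.5% and PAX2 sites from 5.23% to 89.2%, so their gene means mix low and high sites. The order PAX8, PAX2, LHX1 did not hold in every library, since PAX8 spanned 32.3% to 56.5%, PAX2 21.7% to 41.8% and LHX1 16.5% to 34.9%.

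Part of the homeobox sites moved together between libraries in a way that the groups did not follow. The sites formed 338 windows with gaps of up to 200 bp, and 29 windows held at least 10 sites (488 sites). Over the 16 libraries the SD of a window mean ran from 1.34 percentage points (PAX7 at chr2:134028458-134028515) to 12.2 (HOXA3 at chr4:68919893-68920183), and 15 windows had an SD of at least 5. In 10 of these 15 windows the highest library was CON_P library 14 or MET_noP library 25, and in 10 of them the lowest was MET_noP library 17 or CON_P library 30. Of the 14 windows with a smaller SD, 4 had their highest and 4 their lowest value in these libraries. This pattern was singled out after the values were seen, and CpG sites of a window share reads. The 15 windows include 5 of HOXA3 and the HOXA5 window, all in the HOXA cluster. Over the other autosomal sites, libraries 14, 17, 25 and 30 stood out only in part. There the share under 20% was highest in MET_noP library 17 (21.4%) and CON_P library 30 (21.3%) and lowest in CON_P library 14 (15.8%). MET_noP library 29 (15.98%) had a lower share than MET_noP library 25. The mean was highest in CON_P library 14 (66.5%) and MET_noP library 25 (66.03%), with MET_P library 15 (65.997%) close to the latter. It was lowest in CON_noP library 16 (62.9%). CON_noP library 28 and CON_P library 26 (63.7% each) also lay below CON_P library 30 (63.8%) and MET_noP library 17 (63.9%). Whether the windows go beyond these differences over the other sites was not tested.

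In the HOXA3 window of 23 sites, the CON_P libraries 14, 18, 26 and 30 had 65.3%, 38.4%, 29.6% and 21.4%, and the CON_noP libraries 12, 16, 24 and 28 had 29.3%, 33.5%, 42.6% and 31.7%. The MET_P libraries 15, 19, 27 and 31 had 36.7%, 24.6%, 18.3% and 35.7%, and the MET_noP libraries 13, 17, 25 and 29 had 27.9%, 22.8%, 51.9% and 44.9%. The 4 groups overlapped throughout, and the range within CON_P alone was wider than any difference between group means.

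HOXA5, a factor of lung and axial skeleton, was highest in CON_P library 14 (35.1%) over its 49 sites (chr4:68899184-68899737). MET_noP library 25 had 33.4% and CON_P library 18 had 33.3%. The lowest value was 7.23% in MET_noP library 17, followed by CON_noP library 16 (13.3%), CON_noP library 28 (13.5%) and CON_P library 30 (14.7%). The PAX8 window of 12 sites (chr11:46980754-46980819) ran from 3.23% in MET_noP library 17 to 37.8% in CON_P library 14. In the POU2F2 window of 14 sites (chr18:51145237-51145506), whose gene encodes the B cell factor OCT2, the lowest value was 6.69% in MET_noP library 17 and the highest 32.5% in MET_noP library 25. The HOXB3 window of 48 sites (chr19:37927328-37927896) ran from 28.4% in MET_noP library 17 to 50.5% in CON_P library 14.

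Other windows ordered the libraries differently or hardly varied. The LHX1 window of 14 sites (chr19:13306642-13306907) was lowest in MET_noP library 25 with 21.1% and had 32.5% in CON_P library 14, 52.0% in CON_P library 30 and its highest value, 55.9%, in MET_P library 19. HOXC5 (24 sites, chr5:25997945-25998224) was at a similar mean as the HOXA3 window but had an SD of 3.63 percentage points, with 43.3% in CON_P library 14 and 26.7% in MET_noP library 25. The windows of IRX4 (14 sites), POU4F1 (11 sites), LHX5 (12 sites) and NKX6-1 (18 sites) averaged 11.4%, 10.6%, 7.22% and 14.2%, with SDs of 1.82, 1.94, 1.70 and 2.23 percentage points. IRX4 is known from the heart ventricle, POU4F1 from sensory neurons and NKX6-1 from the pancreas and spinal cord.

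**Figure D4:**
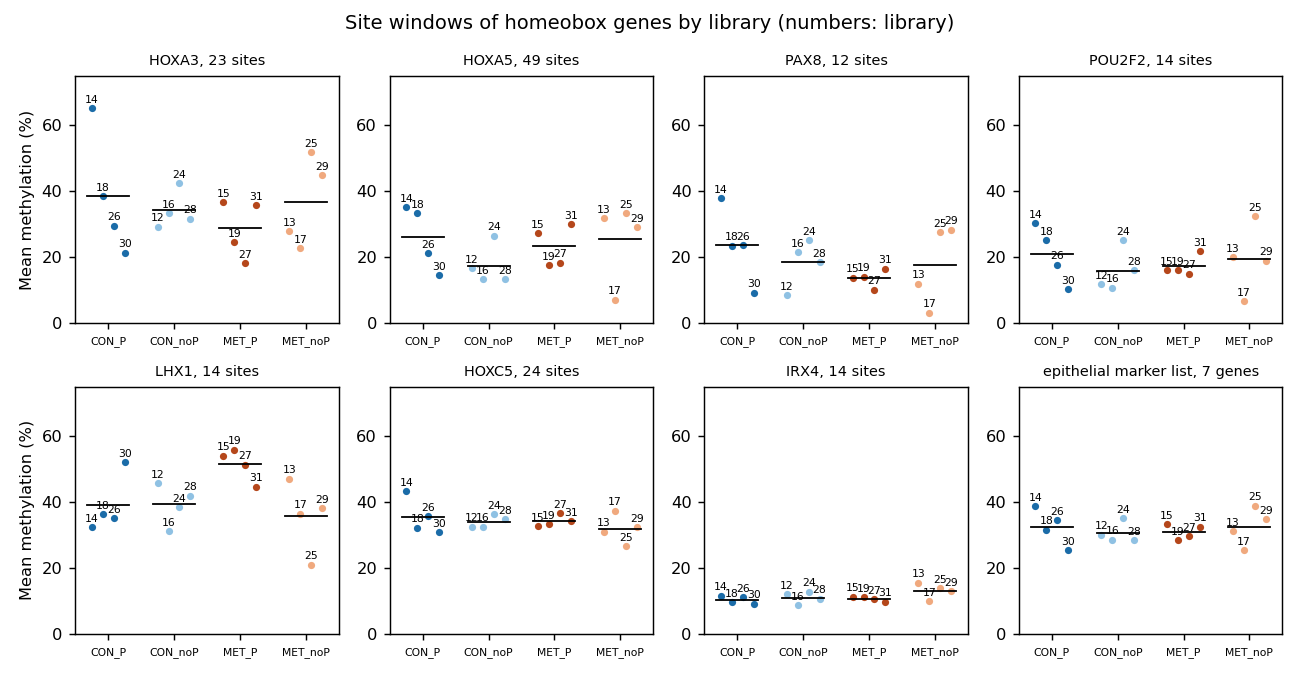
Mean methylation level (%, vertical axis) of 7 windows of homeobox sites, the most variable window of each gene, and of the epithelial marker list in each library, with dots numbered by library, colours by group and black lines at group means. CON_P library 14 and MET_noP library 25 lie high and MET_noP library 17 and CON_P library 30 low in the HOXA3, HOXA5, PAX8 and POU2F2 panels, while the IRX4 panel is flat and the LHX1 panel has MET_noP library 25 lowest.

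Of the marker lists of cell types that a cytobrush can collect, the epithelial list shared its highest libraries with HOXA5. MET_noP library 17 was among the lowest in both, but CON_noP libraries 16 and 28 lay below CON_P library 30 in HOXA5 only. Of the 11 genes of an epithelial list, 9 were measured, and the mean over the 7 with at least 2 sites was highest in MET_noP library 25 (38.9%) and CON_P library 14 (38.8%) and lowest in CON_P library 30 and MET_noP library 17 (25.4% each). CON_P ranged from 25.4% to 38.8%, CON_noP from 28.4% to 35.1%, MET_P from 28.4% to 33.3% and MET_noP from 25.4% to 38.9%. Within it, ELF3 (15 sites), an epithelial transcription factor, had 53.4% in CON_P library 14, 40.7% in MET_noP library 25, 14% in MET_noP library 17 and 13.8% in CON_P library 30. MUC1 (18 sites), a mucin of the endometrial surface, had 52.5%, 40.2%, 18.5% and 17.5%. But MUC1 was lowest in CON_noP library 28 (16.7%), and MET_noP library 29 (43.8%) and CON_P library 18 (41.6%) lay above MET_noP library 25. Both genes were picked after values were seen. Each was highest in CON_P library 14 and enters the mean of the epithelial list. The order of the libraries over the list without ELF3 and MUC1 was not examined. ELF3 had the higher mean in CON_P than in CON_noP (31.6% and 23.8%), whereas CDH1, CLDN3, KRT7 and KRT19 had the lower mean in CON_P.

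The other lists ordered the libraries differently. The mean of a leukocyte list (10 of 15 genes measured) ran from 44.4% in CON_P library 26 to 52.4% in CON_P library 14, and that of a stromal list (5 of 9 measured) from 38.1% in CON_P library 14 to 44.7% in MET_noP library 25. PTPRC, the pan-leukocyte gene, was lowest in MET_noP library 17 (42.9%) and highest in CON_P library 14 (77.8%), and SPI1, a myeloid factor, was lowest in MET_noP library 25 (55.6%) and highest in MET_P library 15 (76.4%). No marker can be at 0 in this table, and methylation of a marker is not its expression, so the tissue label could not be checked by expression. In these bulk libraries a different share of a cell type and a different methylation level per cell cannot be told apart. The part of the cell mix in the levels of the homeobox windows was not tested.

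Averaged over all homeobox sites, the groups did not separate. The CON_P libraries had 27.5%, 25.6%, 23.1% and 21.9%, and the CON_noP libraries 22.8%, 22%, 25.2% and 22.6%. The MET_P libraries had 25.9%, 24.6%, 23.6% and 25.7%, and the MET_noP libraries 25.6%, 21.3%, 27.3% and 25.7%. CON_P averaged 24.5% ± 2.53, CON_noP 23.2% ± 1.4, MET_P 24.9% ± 1.04 and MET_noP 25% ± 2.58 (SD, n = 4 each). The lowest library of all was MET_noP library 17 with 21.3% and the highest CON_P library 14 with 27.5%. All 4 groups overlapped, and the differences between group means ran from -0.059 percentage points (MET_P compared to MET_noP) to 1.84 (MET_noP compared to CON_noP).

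The comparisons between groups asked whether single sites or genes differ with the outcome of the insemination or with RPM. Each was tested by limma on M values, log2 of methylated over unmethylated percent with 1 percentage point added to both, and adjusted over all 199395 sites or over all 8719 genes with at least 2 sites. No homeobox site and no homeobox gene passed an adjusted p of 0.05 in any of the 4 group comparisons, in diet over both outcomes, in outcome over both diets or in their interaction (0 of 1360 sites and 0 of 85 genes each time). Over the whole series 0% of sites and genes passed in the 4 group comparisons and for diet. For outcome 0.000502% of sites and 0% of genes passed, and for the interaction 0.001% of sites and 0% of genes. MET_P and CON_P, and likewise the other groups, each enter more than 1 of these comparisons, so that their results are not independent of each other.

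In the control diet, CON_P compared to CON_noP, 26 homeobox sites (1.91%) had an unadjusted p under 0.05, of which 19 were higher in CON_P (15 of 24 after centring the libraries on the same median), beside 3.93% of all sites. The groups did not overlap at 24 homeobox sites, beside 1.99% of all sites. By gene, SIX3 and HOXA9 were at an unadjusted p under 0.05, 2 of 85 beside 3.5% of all genes, and both were lower in CON_P. Only SIX3 did not overlap between the groups, beside 1.95% of all genes.

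SIX3 (ENSBTAG00000027017, chr11:27366674-27369165, 10 sites), a factor of the eye and forebrain, had 9.04%, 4.99%, 8.11% and 7.44% in the CON_P libraries and 10.9%, 12.4%, 9.55% and 9.20% in the CON_noP libraries. Every CON_P library lay below every CON_noP library, and the means of 7.40% and 10.5% differed by -3.10 percentage points (M difference -0.52, SE 0.20, limma adjusted p = 1). Among single sites, the POU2F2 site at chr18:51146919 had 62.5% to 82.4% in CON_P and 83.3% to 94.4% in CON_noP. It differed by -14.9 percentage points, which did not pass the test (limma adjusted p = 1). The PAX5 site at chr8:61133497 had 9.09% to 22% compared to 2.38% to 5.88%, a difference of 9.59 percentage points (limma adjusted p = 1). PAX5 is the factor of B cell identity.

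In the RPM diet, MET_P compared to MET_noP, 54 homeobox sites (3.97%) had an unadjusted p under 0.05, 33 of them higher in MET_P (24 of 48 after centring), beside 5.12% of all sites. The groups did not overlap at 39 sites, beside 2.9% of all sites. By gene, 5 of 85 were at an unadjusted p under 0.05, beside 5.59% of all genes. Among them, EMX2, LHX1 and DLX4 were higher and IRX3 was lower in MET_P. The groups did not overlap at 1 gene, beside 3.44% of all genes.

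Of the single sites, IRX4 at chr20:70783471 had 2.44% to 8.89% in MET_P and 10.7% to 16.7% in MET_noP, and PAX8 at chr11:46943290 had 92.6% to 100% and 85.7% to 91.1%. Neither passed the test (limma adjusted p = 0.890 for each).

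Between the diets among inseminations that resulted in pregnancy, MET_P compared to CON_P, 56 homeobox sites (4.12%) had an unadjusted p under 0.05, 41 of them higher in MET_P (26 of 49 after centring), beside 5.83% of all sites. The groups did not overlap at 43 sites, beside 3.09% of all sites. By gene, 8 of 85 were at an unadjusted p under 0.05, beside 7.26% of all genes, and all 8 were higher in MET_P, among them EMX2, SIX3, SIX5, LHX1, DLX4, OTX1 and PAX2. At 6 genes the groups did not overlap, beside 3.81% of all genes.

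The direction of this comparison depended on the scaling. As deposited, 68 of the 85 genes (80%) had the higher mean in MET_P, beside 59.1% of all genes. With the libraries centred on the same median, the median difference over all genes moved by -0.13 on the M scale. Then 36 genes (42.4%) were higher beside 38.4% of all genes, and 2 homeobox genes were left at an unadjusted p under 0.05, both higher. Among all genes at that p, 75.4% were higher in MET_P as deposited and 38.1% after centring, and among all such sites 52.5% and 36.7%.

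EMX2 (ENSBTAG00000003027, chr26:37832578-37833501) rests on 2 sites. It had 18.7%, 20.2%, 15.1% and 16% in MET_P and 5.46%, 10.5%, 11% and 11.5% in CON_P, without overlap. The means of 17.5% ± 2.35 and 9.63% ± 2.80 (SD, n = 4) differed by 7.87 percentage points (M difference 0.97, SE 0.25, limma adjusted p = 0.666). In CON_noP (16.2%, 16.8%, 5.43% and 13.9%) and MET_noP (5.79%, 9.76%, 15.1% and 8.70%) the libraries spread over both ranges. The interaction of diet and outcome for EMX2 was 1.36 on the M scale (SE 0.52, limma adjusted p = 0.893).

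SIX5 (ENSBTAG00000013346, chr18:53306242-53309211, 12 sites), which acts in the lens and muscle, had 48.1%, 47.7%, 42.4% and 47.7% in MET_P and 39.2%, 41.7%, 41.3% and 39.6% in CON_P. The difference of 6.01 percentage points did not pass the test (M difference 0.35, SE 0.12, limma adjusted p = 0.680). When the median of its sites replaced their mean, the sign of its M difference turned (-0.03). SIX3 had 10.1% to 11.5% in MET_P and so lay above the CON_P libraries by 3.43 percentage points (limma adjusted p = 0.673).

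Of the sites without overlap between MET_P and CON_P, those with the lowest p included sites in DLX4, PAX7 and HOXA5. DLX4, a factor of placenta and branchial arches, had 64.0% to 87.0% in MET_P and 27.8% to 56.5% in CON_P at chr19:36687413, a difference of 30.6 percentage points. At its neighbour 36687404 it had 70.6% to 82.1% and 37.0% to 60.9%, a difference of 27.8 percentage points. PAX7 at chr2:133942719 had 5.88% to 23.7% in MET_P and 25% to 64.7% in CON_P, a difference of -29.6 percentage points. HOXA5 at chr4:68899184 had 11.1% to 18.2% and 21.7% to 36.7%, a difference of -14.2 percentage points. None of these passed the test (limma adjusted p = 0.827 for each). The PAX7 and HOXA5 sites lie in windows in which CON_P library 14 was highest.

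Between the diets among inseminations that resulted in no pregnancy, MET_noP compared to CON_noP, 44 homeobox sites (3.24%) had an unadjusted p under 0.05, 36 of them higher in MET_noP (21 of 36 after centring), beside 5.13% of all sites. The groups did not overlap at 41 sites, beside 2.75% of all sites. By gene, 6 of 85 were at an unadjusted p under 0.05, beside 6.39% of all genes, and all 6 were higher in MET_noP, namely SIX6, NKX2-4, MEIS1, IRX2, HOXD11 and HOXD3. After centring, 2 were left, 1 in each direction, and the genes with the higher mean in MET_noP fell from 62 of 85 (72.9%, beside 63.0% of all genes) to 35 (41.2%, beside 38.9%). Among all sites at that p, 65.5% were higher in MET_noP as deposited and 48.6% after centring. At 4 genes the groups did not overlap, beside 3.75% of all genes.

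SIX6 (ENSBTAG00000013035, chr10:72694559-72696449, 15 sites), a factor of the retina and pituitary, had 14.6%, 8.67%, 10.5% and 12.9% in MET_noP and 7.52%, 7.12%, 8.15% and 8.05% in CON_noP. The groups did not overlap, and the difference was 3.98 percentage points (M difference 0.58, SE 0.18, limma adjusted p = 0.748). MEIS1 (ENSBTAG00000008448, chr11:64817890-64935295, 7 sites) had 24.8%, 26%, 33.5% and 25.8% in MET_noP and 18.9%, 16.1%, 21.9% and 24.1% in CON_noP, a difference of 7.27 percentage points (M difference 0.57, SE 0.20, limma adjusted p = 0.748).

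IRX2 (ENSBTAG00000047499, chr20:70038629-70046291), with 56 sites the gene under 20% with the most sites, had 13.2%, 11.3%, 14.6% and 12.8% in MET_noP and 8.86%, 9.97%, 10.6% and 11.2% in CON_noP. In MET_P it had 13%, 12.9%, 12.6% and 13.7%, and in CON_P 11%, 12.1%, 12.3% and 10.4%. Neither pair of diet groups overlapped. The difference was 2.82 percentage points between MET_noP and CON_noP (M difference 0.37, SE 0.13, limma adjusted p = 0.748). The single IRX2 site at chr20:70039384 had 9.76% to 19.4% in MET_noP and 2.50% to 7.94% in CON_noP, whereas that at 70038680 had 1.54% to 12.1% and 12.5% to 17.5%. Sites were picked by lowest p in each direction, so the opposite signs follow from the choice. Neither site passed the test (limma adjusted p = 0.906 for each). PAX7 at chr2:134001924 had 3.70% to 20% in MET_noP and 21.1% to 42.4% in CON_noP (limma adjusted p = 0.906).

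**Figure D5:**
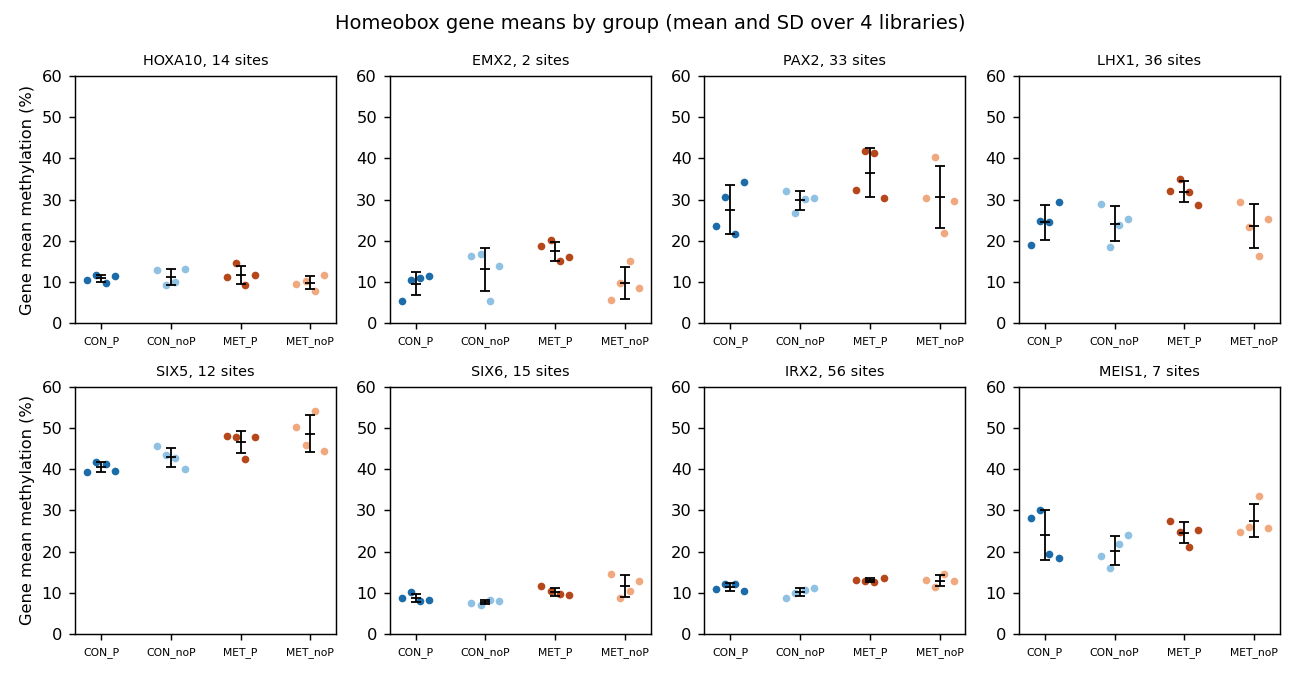
Gene mean methylation level (%, vertical axis) of 8 homeobox genes in the 16 libraries by group, with dots for libraries and bars for the mean and SD over 4 libraries. HOXA10 stays between 7.80% and 14.6% in all groups, and EMX2 in MET_P lies above CON_P without overlap (17.5% and 9.63%), a difference with a limma adjusted p of 0.666.

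Over both outcomes, diet gave 70 homeobox sites (5.15%) at an unadjusted p under 0.05, 52 of them higher with RPM (28 of 57 after centring), beside 6.06% of all sites. Among all sites at that p, 63.7% were higher with RPM as deposited and 37.8% after centring. By gene there were 7 of 85, beside 8.76% of all genes, and all 7 were higher with RPM, namely SIX5, IRX2, SIX6, DLX4, HOXD11, POU3F3 and IRX1. The lowest adjusted p was 0.505, shared by SIX5, IRX2, SIX6, DLX4 and HOXD11. After centring, 2 genes were left, 1 in each direction. Over both diets, outcome gave 35 sites (2.57%), beside 3.83% of all sites, and HOXA9 alone among the genes, lower with pregnancy, beside 3.35% of all genes. For the interaction there were 48 sites (3.53%), beside 5.25% of all sites, and 3 genes, among them SIX3 and EMX2, beside 5.4% of all genes.

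Of the 13 measured uterine and Müllerian duct genes, 0 passed the test in any of the comparisons. The most at an unadjusted p under 0.05 were 4, in MET_P compared to CON_P, beside 7.26% of all genes and 5.83% of all sites. All 4 were higher in MET_P as deposited, in the comparison whose direction over all genes turned with centring. These were EMX2, LHX1 (31.9% ± 2.57 and 24.5% ± 4.23, limma adjusted p = 0.680), PAX2 (36.5% ± 5.92 and 27.6% ± 5.91, limma adjusted p = 0.681) and MSX1. At its single site (chr6:104285612), MSX1 had 18.2%, 16.3%, 11.1% and 11.5% in MET_P and 10.5%, 3.85%, 5.13% and 7.14% in CON_P, without overlap (M difference 1.17, SE 0.46, limma adjusted p = 0.827). LHX1 and PAX2 in MET_P overlapped with CON_P, and HOXA10 and HOXA11 had an unadjusted p over 0.05 in all comparisons. In the same comparison 6 of the 10 leukocyte markers were higher in MET_P as deposited, which is near the 59.1% of all genes. Among these were SPI1 (72.0% compared to 62.8%) and PTPRC (70.6% compared to 64.7%). Others such as LAPTM5 (12.2% compared to 21.8%) and ITGB2 (34.9% compared to 39.4%) had the lower mean. The mean of the list spanned 44.4% to 52.4% in the CON_P libraries and 48.2% to 50.5% in MET_P. The part of the cell mix in the differences of LHX1 and PAX2 was not tested.

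Homeobox genes outside the rule held both low and high genes. Of 96 such genes listed, 82 were measured with 1028 sites, which averaged 45.8%. The median of their gene means was 17.4%, with 45 genes under 20% and 22 at 50% or more. Of 73 with at least 2 sites, 0 passed the test in any comparison, and 1 (CON_P compared to CON_noP, beside 3.5% of all genes) to 7 (diet over both outcomes, beside 8.76%) were at an unadjusted p under 0.05. Genes of the Polycomb and Trithorax proteins, which keep homeobox genes silent or active, were mostly methylated at the measured sites. Of 35 listed, 28 were measured, with a median gene mean of 63.7% and 18 at 50% or more. This is not particular to them, since the 8285 autosomal genes outside the rule with at least 2 sites had a median of 70.6%, with 68.5% at 50% or more. Of the 25 listed genes with at least 2 sites, 0 passed the test in any comparison.

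The sites with the widest spread lay in genes already described. At chr19:36684204 in DLX4 the SD over 16 libraries was 18.4 percentage points, and the CON_noP libraries alone ran from 7.14% to 50.0% and the CON_P libraries from 23.7% to 81.8%. At chr19:37927689 in HOXB3 the values ran from 21.7% to 81.2% and at chr2:133942734 in PAX7 from 8.33% to 73.7%. At each of these 3 sites the ranges of the groups overlapped.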

How the data were processed

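Genomic DNA of endometrial cytobrush cells was digested with MspI, bisulfite-converted and sequenced (RRBS). According to the submitters' processing notes and the study's methods, the authors used Trim Galore for trimming, Bismark for alignment to the ARS-UCD1.2 build, SAMtools to merge the runs of a library, and SeqMonk to compute a methylation percentage for each CpG position over a minimum read count. Positions without a valid value or at zero in any library were discarded. The deposited values are these percentages, without read counts, so the depth is unknown beyond that minimum, and levels of low-methylated sites that remain may be raised by this filter. Columns were assigned to groups by the group name in their header, all 16 columns were used, and a library was 1 replicate.

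Members were taken by gene symbol. The members, gene lists and tests were chosen with earlier results of these data known. M = log2((percent + 1)/(100 - percent + 1)) was tested with limma 3.58.1 in R 4.3.3 (empirical Bayes without trend) on the 8 libraries of a comparison, or on 16 libraries for diet, outcome and interaction, with Benjamini-Hochberg adjustment over 199395 sites or 8719 genes with at least 2 sites. The design foresaw a logistic model only if counts were given, so limma was used. The script was tested on simulated data. Python 3.11.15 (pandas 2.3.3, numpy 2.4.6, matplotlib 3.10.9) served for summaries and plots.

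Named were the gene with most sites per prefix, the 5 highest and 5 lowest genes with at least 5 sites, up to 3 genes and 3 sites per direction and comparison with the lowest p among those without overlap, the measured uterine and Müllerian duct genes, and the 3 sites with the largest SD. From these the text gives a selection, and a few genes are not reported here. Genes at an unadjusted p under 0.05, the windows, the contrast of anterior and posterior HOX genes, genes quoted with few sites or mixed levels, and ELF3, MUC1, PTPRC and SPI1 were named after values were seen. Alternatives were untransformed percentages, an offset of 0.1, moderation with trend, centred libraries, all libraries in 1 model, sets of library numbers as a block, merged strands, genes with at least 5 sites, medians over sites and each library left out. Other homeobox genes, Polycomb and Trithorax genes and epithelial, stromal and leukocyte markers were described by counts and ranges. RefSeq was used for names and order only, and no sequence of the build was used here.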

Additional observations from a re-analysis of the deposited data

Results flagged for a closer look

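In 26 of 300 groups of 4 libraries, 1 library stood apart from the other 3 by more than the 95% critical value of Dixon's test allows. The nominal 1 in 20 groups is not the rate to expect here. Many items were picked from these same values, some flags come from ties at 100% in the other 3 libraries, and HOXD12 counts as a gene and as a window. Windows and genes share sites, so these are not separate events, and no effect was found to differ between groups by the interaction test.

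MET_noP library 17 stood apart most often. It was low in the HOXA5 window (7.23%, others 29.1% to 33.4%), the NKX6-2 window (10.5%, others 16.1% to 17%) and the PAX7 site at chr2:133942719 (15.8%, others 32.1% to 35.3%), and at the nearly full sites of POU2F1 (93.3%, others 100%) and LHX4 (91.9%, others 96.6% to 97.4%). It was high in HOXA13 (18.9%, others 10.9% to 11.4%) and HOXA9 (17.4%, others 9.89% to 11%), the posterior HOX genes of the reproductive tract. In MET_noP, library 25 was high in MEIS1 (33.5%, others 24.8% to 26%), and library 13 was high at the PAX5 site chr8:61133497 (29.6%, others 10.5% to 13.3%) and low at the PAX7 site chr2:133933406 (95.7%, others 100%).

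In CON_P, library 14 was high in HOXD12, as a gene and as a window (36.4%, others 12.1% to 14.4%), and low in EMX2 (5.46%, others 10.5% to 11.5%) and at the POU2F1 site (98.6%, others 100%). At EMX2 it was the lowest CON_P value, so leaving it out could not make CON_P overlap with MET_P (15.1% to 20.2%). CON_P library 18 was high in the HOXC13 window (16%, others 9.19% to 9.91%), and library 26 was low in the methylated PAX7 window (90.1%, others 93.0% to 93.4%). In CON_noP, library 24 was high in HOXA9 (17.3%, others 9.18% to 10.4%), library 12 low in the HOXA3 window of 15 sites from chr4:68931437 (19.7%, others 29.6% to 31.7%), and library 28 low at the POU2F3 site (93.9%, others 100%).

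In MET_P, library 15 was high in the IRX1 window from chr20:69321124 (66.2%, others 49.6% to 52.5%) and the HOXC12 window (19.5%, others 13.2% to 13.5%) and low at the POU6F1 site (98.6%, others 100%). Library 27 was low in SIX5 (42.4%, others 47.7% to 48.1%) and in the HOXA3 window from chr4:68902893 (20.5%, others 26.4% to 27.5%), library 31 was high in the POU2F2 window (21.8%, others 15.1% to 16.2%), and library 19 low at the LHX4 site (98.1%, others 100%).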

How the results depend on the processing

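In all 253 recalculations under the alternatives, the 7 comparisons gave 0 homeobox sites and 0 homeobox genes past the threshold. The counts at an unadjusted p under 0.05 moved by over 1.5 times in 59 of 253 recalculations. With 1 library left out they ran from 20 to 70 sites for CON_P compared to CON_noP, 33 to 87 for MET_P compared to MET_noP, 36 to 121 for MET_P compared to CON_P and 31 to 123 for MET_noP compared to CON_noP, and from 0 to 3, 2 to 7, 4 to 10 and 2 to 10 genes in the same order. No paired analysis by replicate number was possible because the columns carry library numbers and not the replicate numbers of the labels. With sets of consecutive library numbers (1 library of each group) as a block, 0 sites and 0 genes passed, and the same 4 comparisons had 17, 35, 40 and 44 sites and 0, 2, 4 and 6 genes at an unadjusted p under 0.05. Libraries of a set did not deviate together (correlations of -0.132 to 0.117 over 24 pairs). The group means of the homeobox sites fell with the median over sites to 15.1% (CON_P), 14% (CON_noP), 15.9% (MET_P) and 16.2% (MET_noP), and with each gene counted once to 20.3%, 19.8%, 21.3% and 20.6%. Of 471 recalculated differences of named genes and sites, 470 kept their sign and 0 passed the threshold. The exception was SIX5 between MET_P and CON_P, with an M difference of -0.0254 for the median over its sites. Read counts were not used here, so the precision of a single percentage is unknown beyond the minimum read count the authors set, and no floor can be given for the low sites.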

Other observations

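Among the PAX genes, the level did not follow the number of sites. PAX1 (12.5%, 39 sites) and PAX9 (12.2%, 10 sites), which act in the vertebral column and thymus, were low, as was PAX6 (13.3%, 15 sites), the eye factor. PAX7 (36.6%, 136 sites) and PAX5 (38.3%, 20 sites) were higher and held sites from under 10% to over 90%. Across the 16 libraries PAX1 spanned 9.38% to 15.8% and PAX6 10.8% to 16.4%, whereas PAX5 spanned 30.7% to 50.1%.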
